A study of Mus musculus with 16 samples.

Results

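The HRS leg was compared with the PBS leg of the same mouse in 5 mice (m862 to m866), which gave 10 of the 16 bulk RNA libraries and 5 of the 9 mice of the series. HRS is recombinant histidyl-tRNA synthetase, the autoantigen of Jo-1 autoantibodies, given at 3-5 mg/mL, and PBS is the buffer without protein. All mice were C57BL/6 females aged 8-10 weeks, and hamstring muscle was taken 14 days after injection. The members were chosen by the sample titles, which place HRS in the left hamstring and PBS in the right hamstring of each animal. The written protocol describes bilateral injection, so the leg assignment rests on the titles. Within these 10 libraries the side of the body and the treatment cannot be told apart. The PBS legs also belonged to immunized animals, so anything that reached both legs equally cancels in this comparison. The other libraries were 4 legs of 2 mice given PBS only (m867 and m868) and 2 HRS-MBP libraries, which did not enter the comparison.

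Anti-synthetase syndrome is an inflammatory disease of muscle and lung in which patients make antibodies to an aminoacyl-tRNA synthetase, most often the histidyl enzyme. Interferon gamma is released by activated T cells and NK cells and induces chemokines that draw T cells, guanylate-binding proteins, and the machinery that presents antigen on MHC molecules. Muscle fibers are rich in contractile and mitochondrial transcripts, and after injury satellite cells divide and fuse into new fibers that pass through an embryonic myosin stage inside a matrix laid down by fibroblasts.

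Levels are normalised read counts, scaled by the authors so that the geometric mean of the library totals is 1000000. A log2 difference is log2(value + 0.5) in the HRS leg minus that in the PBS leg of the same mouse, and a gene was called at an adjusted p under 0.05 by limma with a log2 difference beyond 1 in either direction. The value of 1 read, read off the low values, put the implied depth, in units of 1000000 reads, at 37.3 to 73.9 in the HRS legs and 24.7 to 72.8 in the PBS legs. Only about 75% of the low values were whole multiples of that step, so read counts were not recovered and intervals that need them are not given.

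Both legs of mouse m866 stood apart from those of the other 4 mice, and results are given with and without this animal where it decides them. Mitochondrially encoded transcripts took 5.72%, 5.24%, 3.41%, 6.29% and 11.1% of the total in the HRS legs of mice m862 to m866, and 10.6%, 9.69%, 11.2%, 10.6% and 10.6% in their PBS legs. The HRS leg was therefore below the PBS leg in 4 mice and slightly above it in mouse m866 (mean 6.36% ± 2.88 against 10.5% ± 0.55, SD, n = 5; exact paired sign-flip permutation test, two-sided p = 0.13, where 5 mice cannot go below 0.063). The summed adipocyte genes stood at 11660 in the PBS leg of mouse m866 and at 1510 to 2468 in the other 4 PBS legs. *Acta1*, the skeletal alpha-actin, was at 28888 in that leg and at 39600 to 42839 in the others. The summed peripheral nerve genes were at 650.1 in the same leg and at 144 to 271 in the other 4 PBS legs. In bulk muscle, fewer cells of a type and less RNA per cell cannot be told apart. The PBS leg of mouse m864 carried skin transcripts, with summed skin markers of 193.2 against 7.67 to 15 in the other 9 libraries, and had the highest *Saa3* and *Igkc* of the PBS legs.

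Of 16414 genes tested, 3652 (22.2%) were called, 2709 (16.5%) higher and 943 (5.75%) lower in the HRS leg. The median log2 difference of all tested genes was 0.08. The split depended on scaling, with 3832 higher and 300 lower when all libraries were set to a common total (median 0.454) and 2031 higher and 1595 lower after quantile normalization (median -0.159). The 2 directions differed in how evenly they were spread over animals. Of the genes called higher, 2052 were higher in all 5 mice, and 656 of the remaining 657 were lower only in mouse m866. Of the genes called lower, 340 were lower in all 5 mice, and 600 of the remaining 603 were higher only in mouse m866. All 5 HRS legs lay above all 5 PBS legs for 3005 genes (18.3% of those tested, 1833 of them called), and all 5 lay below for 524 (3.19%, 145 of them called). Without mouse m866 the call took in 3477 genes (21.2%) higher and 1750 (10.7%) lower. With mouse m866 kept and another mouse left out, the higher genes numbered 1421 (8.66%) without mouse m862, 1467 (8.94%) without mouse m863, 1586 (9.66%) without mouse m864 and 1453 (8.85%) without mouse m865, and the lower genes 134 (0.816%), 147 (0.896%), 144 (0.877%) and 111 (0.676%). These shares are the background for the counts of gene lists given below with a mouse left out.

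**Figure D1:**
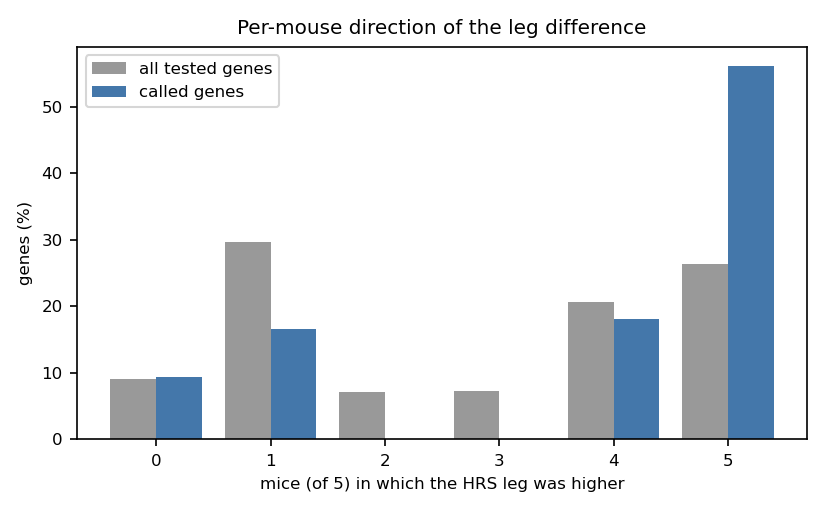
Share of genes (percent, y axis) by the number of mice, 0 to 5, in which the HRS leg was above the PBS leg (x axis), for all 16414 tested genes and for the 3652 called genes. Among called genes 56.2% were higher in 5 mice and 16.5% in 1 mouse, and none was higher in 2 or 3 mice.

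To describe how well any 4 mice stood for the remaining one, genes were called in 4 mice and read in the animal left out. For mice m862, m863, m864 and m865, genes called higher in the other 4 had a median log2 difference of 2.26, 2.14, 2.76 and 2.22 in the left-out mouse, against 2.07, 2.07, 1.84 and 2.06 for the mean of the other 4. At least 99.7% of these genes moved in the same direction in the left-out mouse. Each of these 4 medians was above the mean of the other mice, which included the low mouse m866, and the gap was widest for mouse m864. For mouse m866 the median was 0.26 against 1.78, 65.5% of the genes moved in the same direction, and 92.8% lay under the lowest of the other 4 mice. Genes called lower in the other 4 had medians of -1.28, -1.12, -2.05 and -1.59 in mice m862 to m865 and 0.245 in mouse m866, where 23.7% moved in the same direction. The medians depended on scaling. With all libraries set to a common total, those of the lower genes were -0.821, -0.571, -1.53 and -1.09 in mice m862 to m865 and -0.0235 in mouse m866, where the sign changed, and those of the higher genes were 2.67, 2.61, 3.35, 2.73 and 0.0313.

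**Figure D2:**
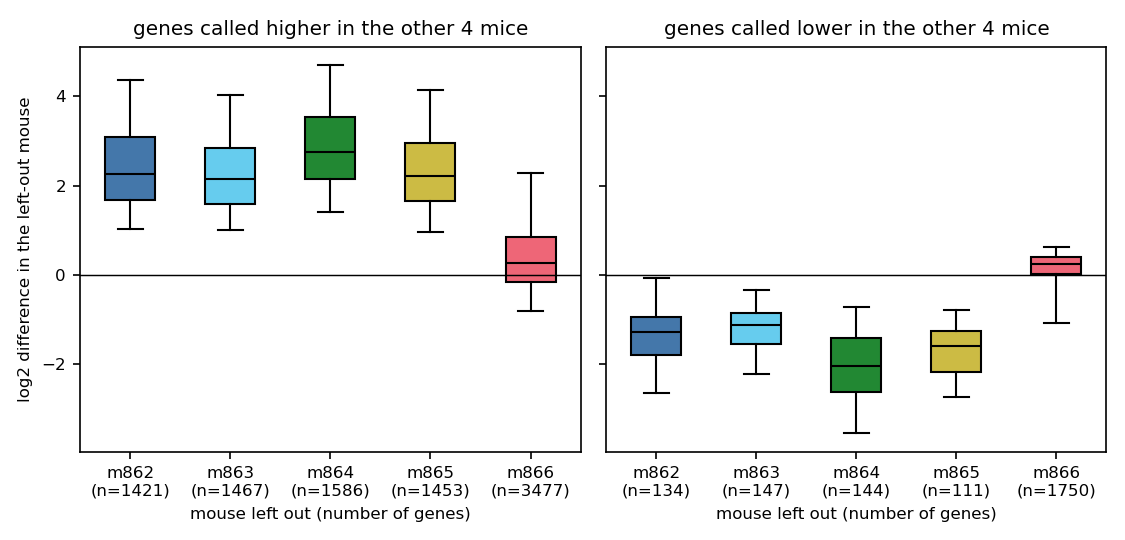
Log2 difference, HRS leg minus PBS leg (y axis), in each left-out mouse (x axis) over the genes called higher (left panel) or lower (right panel) in the other 4 mice. Boxes of mice m862 to m865 lie on the side of the call, with medians of 2.14 to 2.76 and -1.12 to -2.05, whereas the boxes of mouse m866 sit near 0.

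The response was also ranked between animals. In the 18 gene lists with at least 50% of their tested genes called higher, the median was highest in mouse m864 in 13 lists, in mouse m865 in 3, and in mice m862 and m863 in 1 each. Mouse m866 was lowest in 14 of the 18. The 4 lists in which it was not lowest included both interferon lists and the B and plasma cell list. This depended on scaling, since with all libraries set to a common total mouse m866 was lowest in 17 of the 18 lists, both interferon lists included. The interferon gamma medians were then 3.74, 3.43, 4.38, 3.07 and 2.99 in mice m862 to m866 and the type I medians 2.35, 2.3, 3.06, 2.63 and 1.65, while the B and plasma cell medians of mice m863 and m866 were both 1.37. With 5 animals this order is a description, and the lists were chosen with earlier results of these data known.

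**Figure D3:**
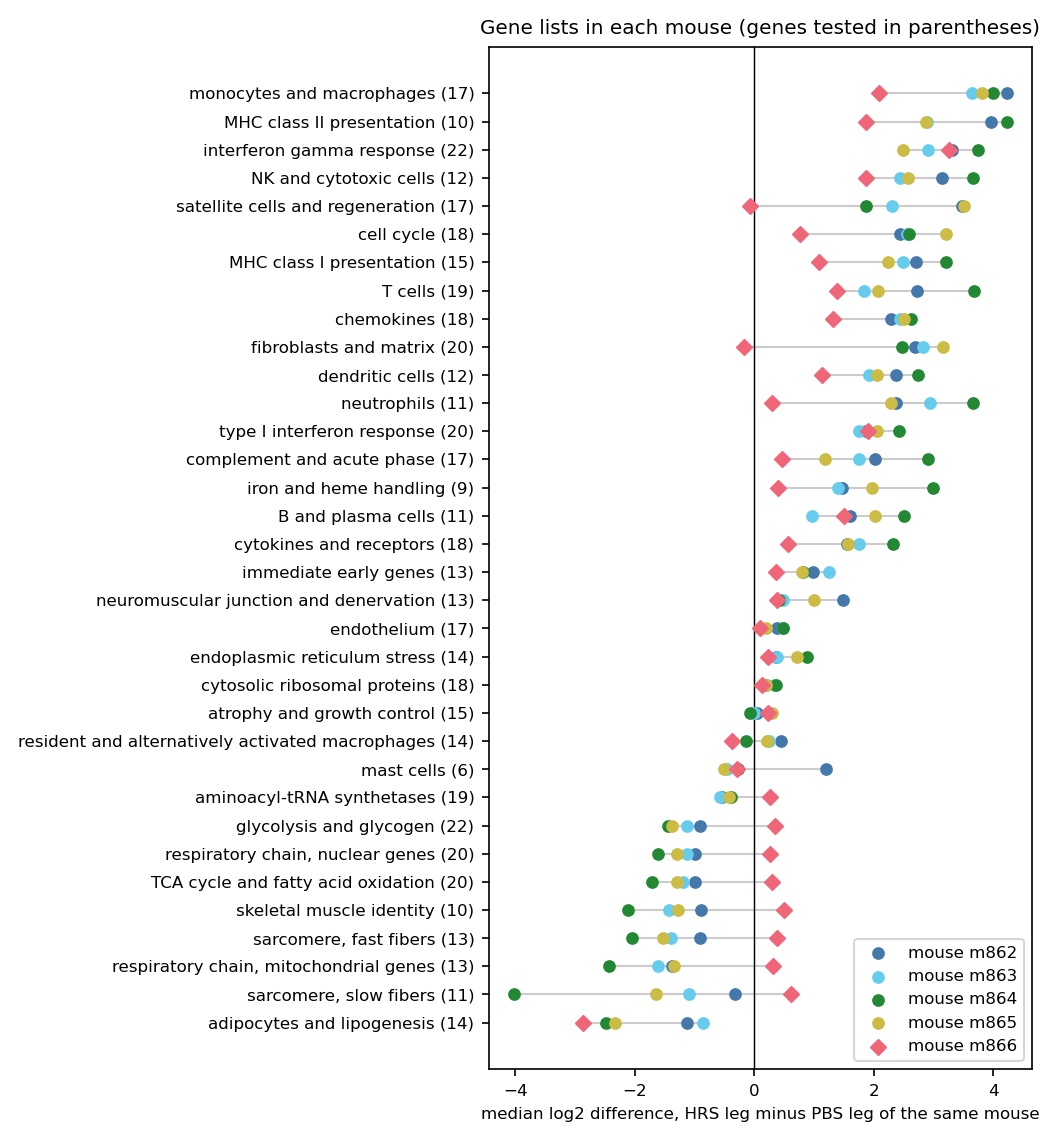
Median log2 difference, HRS leg minus PBS leg (x axis), over the tested genes of each list (y axis, number of genes in parentheses), with 1 point per mouse and diamonds for mouse m866. At the deposited scaling mouse m866 lies within the other mice for the interferon and B cell lists, at about 0 for matrix and regeneration, and on the opposite side of 0 for the muscle and mitochondrial lists. With libraries set to a common total it was the lowest for both interferon lists, at -0.445 for matrix and -0.313 for regeneration, and from -0.0171 to 0.0655 for the mitochondrial and glycolytic lists.

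Interferon gamma-induced genes rose in the HRS leg of every mouse, with 21 of 22 listed genes called higher, none lower, and 20 of 22 with all 5 HRS legs above all 5 PBS legs. The median log2 difference was 3.18, and 3.31, 2.91, 3.75, 2.5 and 3.26 in mice m862 to m866. *Cxcl9*, a chemokine for CXCR3-bearing T cells (chr5:92321347-92328079, GRCm38), was measured at 240.0, 101, 734, 80.2 and 204 in the HRS legs of mice m862 to m866 and at 2.98, 1.7, 11.9, 2.85 and 9.02 in their PBS legs. Each HRS leg was above every PBS leg, and mouse m864 was the highest on both sides (log2 difference 5.31, SE 0.28, adjusted p = 0.000516). In the PBS-only mice *Cxcl9* ranged from 3.16 to 10.1. Its relative *Cxcl10* was at 58.7, 34, 164, 24.9 and 76.3 in the HRS legs and 0.833, 0.511, 2.36, 0.971 and 1.97 in the PBS legs (log2 difference 5.1, SE 0.25, adjusted p = 0.000444), again without overlap. In both genes mouse m864 had the highest HRS leg, mouse m865 the lowest and mouse m863 the next to lowest, and with 1 mouse left out 20 or 21 genes of the list were still called.

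Some immunity-related GTPases, a family that attacks vacuoles of intracellular microbes, had another order. *Igtp* was at 429, 171, 468, 93.6 and 1068 in the HRS legs and 25.1, 15.3, 48.8, 15.3 and 26.7 in the PBS legs (log2 difference 3.73, SE 0.37, adjusted p = 0.00137), and the HRS leg of mouse m866 was the highest. *Gm4841*, an interferon-inducible GTPase-like gene (chr18:60268305-60273272), was at 932, 249, 799, 158 and 2057 in the HRS legs and 11.4, 11.4, 24.5, 9.14 and 10.6 in the PBS legs (log2 difference 5.45, SE 0.51, adjusted p = 0.00117), and again mouse m866 was the highest while its PBS leg was within the other PBS legs. *Irgm2* (log2 difference 3.13) also had its highest HRS leg in mouse m866, but it overlaps *Igtp* on chromosome 11 and reads may have been split between them. *Ciita*, the master activator of MHC class II genes, was at 30.7, 27.9, 87.2, 22.9 and 18 in the HRS legs and 1.19, 2.34, 3.6, 1.29 and 2.34 in the PBS legs (log2 difference 3.67, SE 0.26, adjusted p = 0.000672), with mouse m866 the lowest. *Nos2*, the inducible nitric oxide synthase of activated macrophages, was called (log2 difference 1.61, adjusted p = 0.0339) only while mice m862, m863 and m865 were all kept, and its HRS level was 70.4 in mouse m864 and 5.38 to 11.1 in the others. *Ido1*, which degrades tryptophan, was not called (log2 difference 0.4, adjusted p = 0.449).

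**Figure D4:**
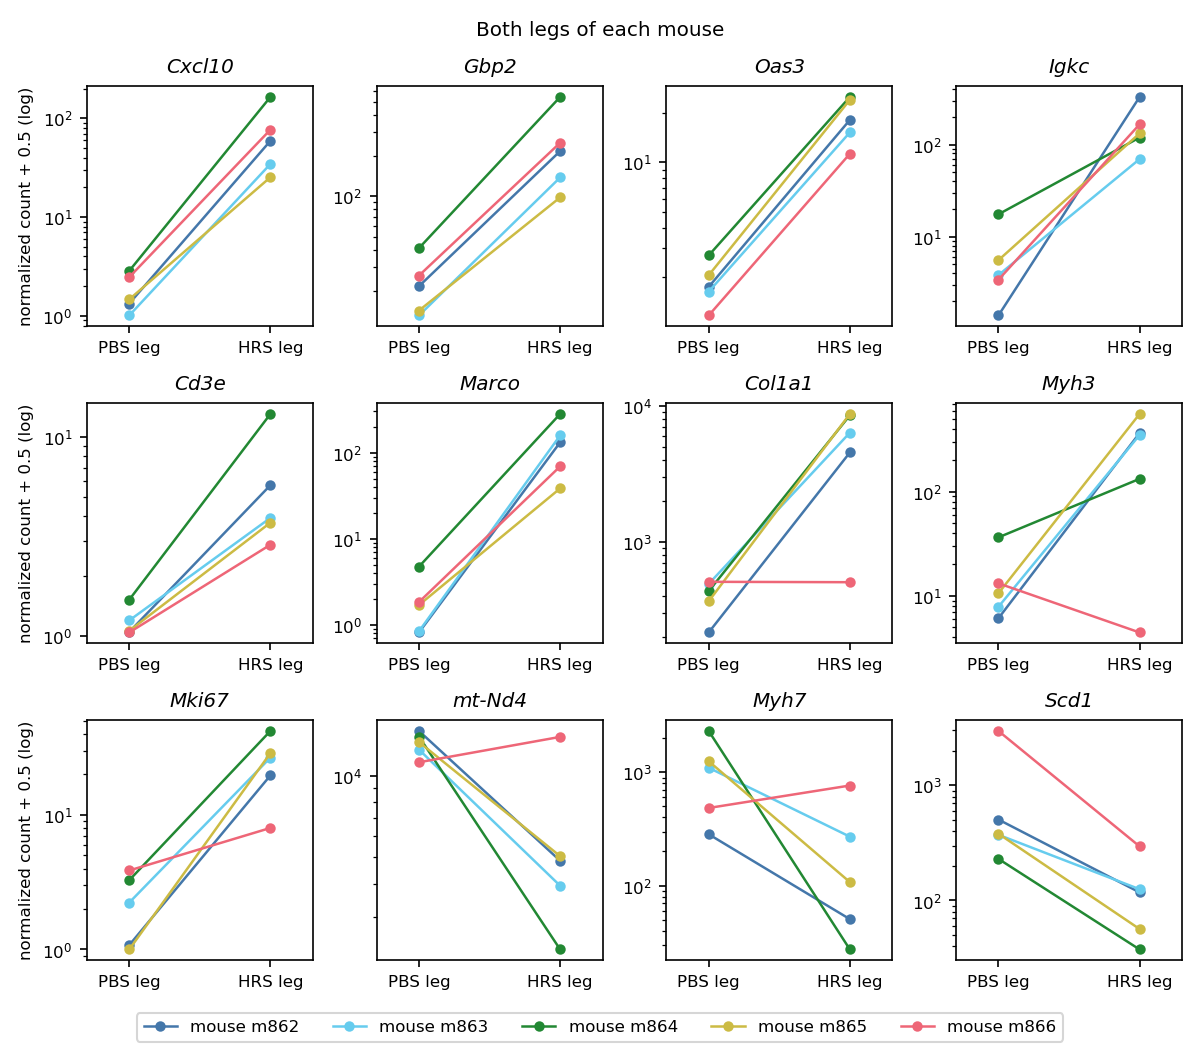
Normalised read count + 0.5 (y axis, log scale) in the PBS leg and the HRS leg (x axis) for 12 genes, 1 line per mouse. For *Cxcl10*, *Gbp2*, *Oas3* and *Igkc* all 5 lines climb to levels above every PBS leg, for *Col1a1* and *Myh3* 4 lines climb and the line of mouse m866 is flat or falls, for *mt-Nd4* and *Myh7* 4 lines fall and that of mouse m866 climbs, and for *Scd1* all 5 fall.

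The genes better known for type I interferon rose in all mice, with 20 of 20 called higher whichever mouse was left out, a median log2 difference of 1.95 and medians of 1.87, 1.75, 2.42, 2.06 and 1.91 in mice m862 to m866. *Oas3*, an enzyme that senses double-stranded RNA, was at 17.6, 14.7, 24.5, 23.5 and 10.8 in the HRS legs and 1.25, 1.14, 2.22, 1.56 and 0.673 in the PBS legs, with no overlap (log2 difference 3.32, SE 0.13, adjusted p = 0.000391). Its log2 differences had an SD of 0.141 over the mice, one of the narrowest among genes with a change beyond 2, but 0.39 with libraries set to a common total, where mouse m866 was the lowest. Outside this list, the guanylate-binding protein genes *Gbp3* and *Gbp2* (the latter in the interferon gamma list) and *Tgtp2* were also among the genes with the largest moderated statistics. *Gbp3* was at 90.0, 59.3, 175, 45.3 and 89.8 in the HRS legs and 17.2, 11, 30.1, 9.53 and 16.6 in the PBS legs (log2 difference 2.37, SE 0.1, adjusted p = 0.000409), with an SD of 0.119 (0.393 at a common total). *Tgtp2*, a GTPase gene, was at 156, 84, 333, 70.7 and 173 in the HRS legs and 18.2, 8.44, 32.2, 10.8 and 19.9 in the PBS legs (log2 difference 3.08, SE 0.13, adjusted p = 0.000409), with an SD of 0.265 (0.471 at a common total), although its near-identical neighbour *Tgtp1* may share reads with it. *Gbp2* was at 216, 138, 546, 97.7 and 249 in the HRS legs and 21, 12.6, 40.7, 13.7 and 25.3 in the PBS legs (log2 difference 3.31, SE 0.15, adjusted p = 0.000444). In each of these 4 genes the highest PBS leg was below the lowest HRS leg. Within the type I list, the antiviral genes *Irf7* and *Isg15* had log2 differences of 2.47 and 2.33.

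The promoters of these 4 genes are shown because, with *Acod1*, they had the 5 largest moderated statistics among genes called higher. *Acod1* held no match in the 100 bases just upstream of its start and is not printed. Each line gives the 100 bases just upstream of a RefSeq transcript start (GRCm38.p6), 5′ to 3′ along the gene, with matches to GAAANNGAAA or its reverse complement TTTCNNTTTC in capitals, the letters of an interferon-stimulated response element (ISRE) core. Matches began 59 bases upstream of the start in *Gbp2*, 45 and 39 in *Gbp3* (overlapping matches), 70 in *Tgtp2* and 75 in *Oas3*.
Gbp2, chr3:142620563-142620662, plus strand: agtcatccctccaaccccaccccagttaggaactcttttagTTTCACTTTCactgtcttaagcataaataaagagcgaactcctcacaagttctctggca
Gbp3, chr3:142559944-142560043, plus strand: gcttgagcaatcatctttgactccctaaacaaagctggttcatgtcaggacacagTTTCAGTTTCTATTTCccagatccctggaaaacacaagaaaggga
Tgtp2, chr11:49064213-49064312, minus strand: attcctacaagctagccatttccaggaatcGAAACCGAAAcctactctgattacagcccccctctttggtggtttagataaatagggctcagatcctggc
Oas3, chr5:120777660-120777759, minus strand: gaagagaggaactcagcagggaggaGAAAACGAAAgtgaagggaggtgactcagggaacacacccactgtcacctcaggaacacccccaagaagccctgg

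In the 250 bases searched upstream of each start, on both strands, 936 of 27025 genes with a RefSeq promoter (3.46%) held the ISRE letters. Sequences were matched by symbol for 11341 of the 16414 tested genes, of which 390 (3.44%) held a match. The share was 7.06% (142 of 2012) among genes called higher and 2.21% (14 of 633) among genes called lower. Among genes called higher in the other 4 mice, it was 23.3% (37 of 159) for those whose difference in mouse m866 reached the range of the other mice and 4.84% (117 of 2416) for those under it, or 41.9% (18 of 43) and 5.37% (136 of 2532) with libraries set to a common total. In the lists, 9 of 13 interferon gamma genes, 6 of 14 type I interferon genes, 0 of 11 T cell genes and 0 of 11 matrix genes with a promoter held it. The next highest share among the lists was 3 of 10 in the cytosolic ribosomal protein genes, of which 1 of 18 was called. The gamma-activated site TTCNNNGAA, which can overlap the ISRE letters, was in 8.13% of all promoters, 9.44% of those called higher, 5.85% of those called lower, 18.2% (29 of 159) of those in range in mouse m866 and 8.15% of those under it. A match of letters is a description and does not show binding. A second start of *Gbp3* held no ISRE match in the 100 bases just upstream of it.

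Antigen presentation rose on both arms, with 10 of 10 MHC class II genes and 14 of 15 class I pathway genes called higher. *H2-Ab1*, the beta chain of I-A, was at 566, 507, 1729, 359.9 and 234 in the HRS legs and 23.7, 56, 76.6, 44.5 and 60.7 in the PBS legs (log2 difference 3.43, SE 0.39, adjusted p = 0.00231). No HRS leg overlapped a PBS leg, but mouse m866 was the lowest HRS leg and mouse m864 stood far above the rest. *Cd74*, the invariant chain, followed it (log2 difference 3.28). The classical class I gene *H2-K1* was at 1299, 1079, 2671, 826 and 618 in the HRS legs and 155, 138, 217, 145 and 341 in the PBS legs (log2 difference 2.6, SE 0.39, adjusted p = 0.00562). Its difference in mouse m866 was 0.86, under that of the other 4 mice, since the PBS leg of that mouse was the highest of the PBS legs and its HRS leg the lowest of the HRS legs. The peptide transporter *Tap1* (3.08), the class I activator *Nlrc5* (2.96) and beta-2 microglobulin *B2m* (2.4) also rose, while the peptidase *Erap1* was not called. The list medians were 3.97, 2.9, 4.24, 2.88 and 1.88 for class II and 2.71, 2.49, 3.21, 2.24 and 1.09 for class I in mice m862 to m866. H2 genes are near-identical in places, and reads may be split among them.

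T cell genes rose in all mice, with 17 of 19 called higher and medians of 2.73, 1.84, 3.68, 2.08 and 1.38 in mice m862 to m866. *Cd4*, the helper co-receptor also found on some myeloid cells, was at 20.1, 17.1, 40.5, 19.6 and 4.05 in the HRS legs and 0.449, 0.478, 0.878, 0.559 and 0.458 in the PBS legs (log2 difference 4.0, SE 0.37, adjusted p = 0.00117). *Cd3e*, a chain of the T cell receptor complex, was at 5.21, 3.41, 12.5, 3.2 and 2.37 in the HRS legs and 0.545, 0.694, 1.02, 0.559 and 0.539 in the PBS legs (log2 difference 2.11, SE 0.27, adjusted p = 0.00306). *Cd8a*, the cytotoxic co-receptor, was at 5.35, 2.66, 14, 1.99 and 1.47 in the HRS legs and 0.0961, 0.181, 0.277, 0.0882 and 0 in the PBS legs (log2 difference 2.76, SE 0.36, adjusted p = 0.00359). In all 3 genes the HRS legs lay above the PBS legs, mouse m864 was the highest and mouse m866 the lowest. *Foxp3*, which defines regulatory T cells, had a log2 difference of 0.83 (adjusted p = 0.0169) and did not pass the fold threshold, and *Cd247* was not called either. All 12 tested NK and cytotoxic genes were called higher, among them the granule genes *Gzmb* (3.02) and *Nkg7* (3.25) and the transcription factor *Eomes* (2.28). *Ccl5*, a chemokine of cytotoxic lymphocytes, was at 56, 32.1, 280.0, 22.4 and 13.4 in the HRS legs and 0.417, 0.725, 3.0, 0.912 and 1.99 in the PBS legs (log2 difference 4.7, SE 0.54, adjusted p = 0.00234).

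*Ifng*, the interferon gamma gene itself, was at 1.36, 0.744, 5.3, 0.349 and 1.43 in the HRS legs and at 0 in all 5 PBS legs (adjusted p = 0.0143). Taking 3 reads over the PBS group as the floor, the pooled HRS level was at least 106-fold higher, or at least 49.6-fold without mouse m864, and the call was lost without mouse m862. In the PBS-only mice *Ifng* ranged from 0 to 0.243, so this fold describes the PBS legs of the immunized mice only. Genes of tissue-resident memory T cells were read alongside. *Cd69*, an activation and retention marker, was at 4.29, 2.21, 7.45, 1.87 and 1.68 in the HRS legs and 0.0321, 0.0989, 0.37, 0.0588 and 0.0269 in the PBS legs (log2 difference 2.54, SE 0.25, adjusted p = 0.00137). *Cxcr6*, a receptor of tissue-homing T cells, was at 2.88, 2.87, 12.4, 2.47 and 1.53 in the HRS legs and 0.0641, 0.0659, 0.323, 0.0588 and 0.242 in the PBS legs (log2 difference 2.6, SE 0.34, adjusted p = 0.00352). Neither gene overlapped between the legs. *Prdm1*, which encodes Blimp-1 and is also made by plasma cells and macrophages, was at 5.04, 5.53, 9.75, 6.18 and 2.46 in the HRS legs and 0.417, 1.32, 1.29, 1.0 and 1.37 in the PBS legs (log2 difference 1.93, SE 0.3, adjusted p = 0.00618). *Itgae*, the CD103 integrin chain, was at 1.13, 1.1, 1.63, 1.02 and 0.717 in the HRS legs and 0.16, 0.231, 0.323, 0.324 and 0.404 in the PBS legs (log2 difference 1.02, SE 0.2, adjusted p = 0.0122), and this call was lost without mouse m862, m863, m864 or m865.

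Immunoglobulin constant-region transcripts rose, with 10 of 11 tested genes called higher, and the levels of the heavy-chain genes differed between animals. *Igkc*, the kappa light chain constant region, was at 328, 69.1, 119, 132 and 165 in the HRS legs and 0.897, 3.33, 17, 5.06 and 2.91 in the PBS legs, with no overlap (log2 difference 5.0, SE 0.66, adjusted p = 0.0036). Its log2 difference was 7.88 in mouse m862, 2.77 in mouse m864, whose PBS leg was the highest, and 5.6 in mouse m866. *Ighg2c* was at 500.2, 12.5, 106, 28.1 and 16.7 in the HRS legs and 0.481, 0.577, 3.86, 0.912 and 0.761 in the PBS legs, with mouse m862 far above the rest. *Ighg1* was at 10.5, 15.9, 14.8, 4.17 and 56.5 in the HRS legs and 0.0321, 0, 0.6, 0.0588 and 0.0808 in the PBS legs, with mouse m866 the highest. *Ighg2b* was at 22.3, 14.1, 92, 67.3 and 69.4 in the HRS legs and 0.385, 0.0494, 12.8, 0.5 and 0.478 in the PBS legs, where mouse m864 again had the highest PBS leg. *Ighg3* was at 69.7, 12.5, 4.23, 60.2 and 16.5 in the HRS legs and 0, 0.0659, 0.878, 0.382 and 0.377 in the PBS legs, with mice m862 and m865 the highest. Over the mice the SD of the log2 difference was 2.24 for *Ighg2c* and 2.04 for *Ighg3*, among the widest of the genes that rose in all 5. Of 85 variable-segment genes 20 (23.5%) were called higher, a share near the 16.5% of all tested genes, 65 were not called and none was called lower. The higher calls among them numbered 7 to 10 with 1 of mice m862 to m865 left out. These genes are a multigene family with near-identical copies, so the split of reads among them is uncertain.

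*Jchain*, which joins IgA and IgM polymers in plasma cells, was at 42.2, 14.5, 20.1, 28.7 and 43.1 in the HRS legs and 0.192, 1.37, 4.39, 1.32 and 1.05 in the PBS legs (log2 difference 3.97, SE 0.53, adjusted p = 0.00384). *Ighm* was at 181, 129, 99, 229 and 354 in the HRS legs and 64.2, 61.4, 67.1, 53.6 and 51.3 in the PBS legs, a smaller difference that was lost as a call without mouse m862 or m865 (log2 difference 1.6, SE 0.31, adjusted p = 0.013). Of the 11 tested B and plasma cell genes 9 were called higher (5 to 8 with 1 of mice m862 to m865 left out), while *Pax5*, the B cell identity factor, and *Xbp1*, the secretory factor that muscle also expresses (log2 difference -0.07), were not. Of 9 genes listed for lymph node stroma only 3 were tested (*Ccl21a*, *Cxcl13* and *Ltb*, the last also made by lymphocytes), and all 3 were called higher. The sum of the 8 listed genes in the table was at 30.7 to 63.8 in the HRS legs against 3.83 to 14.2 in the PBS legs. *Glycam1*, *Madcam1*, *Cr2*, *Chst4* and *Fcer2a* were too low to be tested, and *Fdcsp* was not in the table. *Glycam1*, a defining marker of lymph node vessels, was at 0 to 1.64 in the HRS legs. The part of lymphoid tissue in the lymphocyte and immunoglobulin results was not tested.

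Monocyte and macrophage genes had a median log2 difference of 3.58, with 17 of 17 called higher whichever mouse was left out. *Lyz2*, lysozyme M, was at 1641, 2565, 3840.0, 1807 and 707 in the HRS legs and 54.9, 131, 166, 100.3 and 129.6 in the PBS legs, without overlap and with mouse m866 the lowest (log2 difference 4.06, SE 0.36, adjusted p = 0.00105). The NADPH oxidase subunit *Cybb* (4.52) and the activating Fc receptor *Fcgr4* (4.77) were among the largest log2 differences of the list. *Marco*, a scavenger receptor, was at 131, 158, 279.9, 37.9 and 68.7 in the HRS legs and 0.321, 0.346, 4.25, 1.21 and 1.35 in the PBS legs (log2 difference 6.1, SE 0.46, adjusted p = 0.000782). *Acod1*, which makes the antimicrobial metabolite itaconate, was at 54.2, 56.8, 164, 34.8 and 49.7 in the HRS legs and 0.224, 0.132, 1.89, 0.441 and 0.619 in the PBS legs (log2 difference 5.91, SE 0.22, adjusted p = 0.000391). *Saa3*, an acute-phase apolipoprotein, was at 407, 362, 1222, 134 and 87.6 in the HRS legs and 1.38, 0.725, 14.2, 3.65 and 3.82 in the PBS legs, the largest rise among protein-coding genes that were higher in all 5 mice (log2 difference 6.34, SE 0.58, adjusted p = 0.00116). *Mmp12*, macrophage elastase, was at 54.3, 136, 93.8, 104 and 8.88 in the HRS legs and 0.897, 0.379, 3.28, 0.912 and 0.916 in the PBS legs (log2 difference 5.23, SE 0.6, adjusted p = 0.00227). For *Mmp12* and *Saa3* the HRS leg of mouse m866 was the lowest, whereas for *Acod1* it was close to those of mice m862 and m863.

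Markers of resident and alternatively activated macrophages split, with 5 of 14 called higher and 5 lower. Their median log2 difference of 0.02 changed sign under other scalings, and the list is described by its genes. *Retnla*, induced by interleukin-4, was at 2.73, 3.33, 0.482, 2.69 and 9.19 in the HRS legs and 21.4, 53.3, 31.3, 33.1 and 61 in the PBS legs (log2 difference -3.53, SE 0.34, adjusted p = 0.00136). *Cd163*, the hemoglobin scavenger receptor, was at 6.14, 5.92, 4.54, 6.64 and 7.17 in the HRS legs and 9.49, 27, 20.3, 18.9 and 24.2 in the PBS legs (log2 difference -1.57, SE 0.24, adjusted p = 0.00549). *Ccl24*, an eosinophil chemokine and the only one of 18 chemokines called lower, was at 0.382, 0.874, 0.232, 0.445 and 0.374 in the HRS legs and 1.6, 3.59, 1.85, 2.0 and 3.72 in the PBS legs (log2 difference -1.64, SE 0.2, adjusted p = 0.00259). All 3 fell in every mouse, mouse m866 included, and no HRS leg overlapped a PBS leg. *Cd209d*, *Cd209f* and *Mgl2* were also called lower. *Mrc1* (1.53), *Folr2*, *Chil3* (2.99) and *Clec10a* were among those called higher. The lower calls numbered 4 or 5 with 1 of mice m862 to m865 left out, whereas *Folr2* and *Clec10a* lost their calls in each such case and *Mrc1* lost its call without mouse m862 or m865.

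Of 11 neutrophil genes 9 were called higher, yet their list medians were 2.38, 2.94, 3.66, 2.29 and 0.29 in mice m862 to m866. *S100a8*, a calprotectin subunit, was at 4.72, 16.4, 21.7, 9.22 and 0.343 in the HRS legs and 0.0961, 0.132, 0.37, 0.294 and 0.189 in the PBS legs, so that 4 mice were high and mouse m866 was within the PBS legs (log2 difference 3.29, SE 0.64, adjusted p = 0.0123). The call was lost without any one of mice m862 to m865. *Csf3r*, the G-CSF receptor (4.19), kept its call whichever mouse was left out, and 5 of the 11 genes were called with any 1 of mice m862 to m865 left out, against 11 without mouse m866. Of 12 dendritic cell genes 10 were called higher, among them *Itgax* (4.13), *Ccr7* (2.65) and *Ccl22* (2.33). Of 6 tested mast cell genes *Hdc* and *Kit* were called higher, the latter not with any 1 of mice m862 to m865 left out. Mouse m862 was apart from the others, with a list median of 1.21 and all 6 genes higher, against -0.453, -0.271, -0.513 and -0.285 and 2 of 6 genes higher in mice m863 to m866. The list median over the mice was -0.18, and 0.194 with libraries set to a common total, where mouse m862 was at 1.67 and the others were from -0.544 to 0.299.

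Of the 18 chemokines 14 were called higher. *Ccl2*, which recruits monocytes, was at 12.4, 18.4, 35.9, 15 and 17.4 in the HRS legs and 1.06, 0.659, 0.831, 0.706 and 1.35 in the PBS legs, and mouse m866 lay within the other HRS legs (log2 difference 3.76, SE 0.26, adjusted p = 0.00064). *Ccl7* (3.69) and *Ccl8* (4.27), which act on related receptors, rose as well. *Cxcl13*, the B cell chemokine, was at 3.93, 3.94, 6.57, 1.74 and 19 in the HRS legs and 0.865, 0.972, 4.67, 1.0 and 2.75 in the PBS legs (log2 difference 1.38, SE 0.33, adjusted p = 0.0217), with mouse m866 the highest on the HRS side, but the legs overlapped and the call was lost without mouse m862 or m863. Of 18 cytokine and receptor genes 14 were called higher, 9 or 10 with 1 of mice m862 to m865 left out, including *Tnf* (3.46), *Il1b* (3.91) and the anti-inflammatory *Il10* (1.63). Of 17 complement and acute-phase genes 11 were called higher, 6 to 9 with 1 of mice m862 to m865 left out, such as factor B, *Cfb* (3.65), and *C3* (1.99, lost without mouse m862 or m863). The 3 called lower were *Cfd* (adipsin, an adipocyte product), *Orm1* and *Pla2g2d*.

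Among endothelial genes the adhesion molecules rose and the defining genes were not called. *Icam1*, a leukocyte adhesion molecule, was at 50.4, 52.4, 149, 43.6 and 47.3 in the HRS legs and 6.79, 7.96, 7.9, 8.35 and 8.5 in the PBS legs, with no overlap (log2 difference 2.87, SE 0.27, adjusted p = 0.00125). *Vcam1* (2.61) and *Sele* (1.53) also rose, and 6 of 17 listed genes did in all, 4 or 5 with 1 of mice m862 to m865 left out. The junction gene *Cdh5* had a log2 difference of 0.04 and *Pecam1* of 0.35, and neither was called. *Icam1* and *Vcam1* are also made by leukocytes and stromal cells.

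Fibroblast and matrix genes rose in 4 mice and not in mouse m866. Of 20 genes 17 were called higher, 19 without mouse m866, and the list medians were 2.7, 2.82, 2.48, 3.17 and -0.17 in mice m862 to m866. *Col1a1*, the main chain of type I collagen, was at 4569, 6393, 8587, 8779 and 506 in the HRS legs and 215, 491, 435, 366 and 509 in the PBS legs (log2 difference 3.4, SE 0.7, adjusted p = 0.0148). Its HRS legs in mice m862 to m865 were all far above the PBS legs, while the 2 legs of mouse m866 differed by a log2 of -0.01. *Tnc*, tenascin C, was at 255, 431, 271, 658 and 4.43 in the HRS legs and 2.05, 2.95, 11.8, 4.4 and 10.2 in the PBS legs (log2 difference 4.81, SE 1.19, adjusted p = 0.0244). *Postn*, periostin, was at 980.2, 1678, 1263, 2604 and 40.9 in the HRS legs and 16.8, 63.8, 63.2, 34.7 and 122 in the PBS legs (log2 difference 3.9, SE 1.09, adjusted p = 0.0313). In mouse m866 both were lower in the HRS leg than in the PBS leg. With 1 of mice m862 to m865 left out only 2 or 3 of the 20 genes were called, and *Col1a1*, *Tnc* and *Postn* were not among them. *Timp1*, an inhibitor of matrix metalloproteinases, was at 12.1, 21.3, 25.6, 22 and 2.31 in the HRS legs and 0.385, 0.461, 1.2, 0.618 and 1.43 in the PBS legs (log2 difference 3.43, SE 0.58, adjusted p = 0.00784), and it was the only gene of the list with all 5 HRS legs above all 5 PBS legs. The tendon genes *Tnmd* (lost without any 1 of mice m862 to m865) and *Thbs4* (lost without mouse m865) were also called higher, 2 of 7 tested. Without mouse m866 5 of the 7 tendon genes were called higher. The part of tendon in the matrix result was not tested.

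Genes of regenerating fibers had medians of 3.48, 2.3, 1.87, 3.52 and -0.07 in mice m862 to m866, so that mouse m866 was again the lowest. Of 17 genes 10 were called higher, 11 without mouse m866 and 3 with any 1 of the other mice left out. *Myh3*, embryonic myosin heavy chain, was at 366, 350.1, 132, 557 and 3.94 in the HRS legs and 5.57, 7.33, 35.9, 10.1 and 12.7 in the PBS legs (log2 difference 3.48, SE 1.13, adjusted p = 0.0446). *Mymk*, myomaker, which fuses myoblasts, was at 31.5, 27.7, 16, 59.2 and 0.623 in the HRS legs and 0.192, 0.857, 1.43, 0.382 and 0.754 in the PBS legs (log2 difference 3.78, SE 0.86, adjusted p = 0.0195). *Myog*, the myogenin differentiation factor, was at 56.7, 55.3, 30.1, 92.4 and 13.1 in the HRS legs and 8.62, 14.2, 12.2, 6.24 and 9.8 in the PBS legs (log2 difference 2.01, SE 0.45, adjusted p = 0.0192). For *Myh3* and *Mymk* the HRS legs of mice m862 to m865 were above all PBS legs and that of mouse m866 was within or below them. Perinatal myosin *Myh8* (log2 difference 2.63, adjusted p = 0.0629) was not called. The stem cell factor *Pax7* (0.24) and the myoblast factor *Myod1* (-0.15) were not called either. *Sln*, sarcolipin, a calcium pump regulator, was at 163, 131, 90.1, 186 and 5.92 in the HRS legs and 2.72, 26.9, 6.24, 5.68 and 5.09 in the PBS legs (log2 difference 3.36, SE 0.75, adjusted p = 0.0188), and *Chrng*, the fetal acetylcholine receptor subunit, had a log2 difference of 3.08. The calls of *Myh3*, *Mymk*, *Myog*, *Sln* and *Chrng* were each lost without any 1 of mice m862 to m865.

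*Mstn*, myostatin, an inhibitor of muscle growth, was at 17.7, 12.7, 9.34, 22.1 and 77.1 in the HRS legs and 114, 80.7, 75.4, 72.8 and 70.2 in the PBS legs (log2 difference -1.96, SE 0.44, adjusted p = 0.0191), low in 4 HRS legs and not in mouse m866. The ubiquitin ligase gene *Fbxo32* (-1.55) and *Trim63* were called lower, and the growth factors *Igf1* (1.99) and *Igf2* (2.29) and the cell cycle inhibitor *Cdkn1a* higher, 3 each way of the 15 growth-control genes. The 3 higher are a share near the 16.5% of all tested genes, and with 1 of mice m862 to m865 left out 0 or 1 gene of this list was called higher and none lower. Proliferation genes rose, with 15 of 18 called higher, 13 or 14 with 1 of mice m862 to m865 left out, and medians of 2.44, 2.56, 2.6, 3.22 and 0.78. *Mki67* was at 19.2, 26.2, 41.7, 28.4 and 7.51 in the HRS legs and 0.577, 1.73, 2.77, 0.5 and 3.37 in the PBS legs, with no overlap and mouse m866 the lowest (log2 difference 3.47, SE 0.51, adjusted p = 0.00513). *Top2a*, the replication topoisomerase, had a log2 difference of 3.38. *Hmox1*, which breaks down heme, was at 86.5, 108, 170.1, 84.7 and 31.4 in the HRS legs and 6.22, 8.14, 12.1, 7.44 and 12.7 in the PBS legs (log2 difference 3.16, SE 0.38, adjusted p = 0.00261), and the macrophage iron exporter of phagosomes *Slc11a1* rose by 3.57. Of 13 immediate early genes 5 were called higher, 3 or 4 with 1 of mice m862 to m865 left out and 7 without mouse m866, such as *Junb* (2.09), and *Nr4a1* (-1.29, lost without any 1 of mice m862 to m865) was called lower.

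Transcripts of mature fibers were lower in the HRS leg of mice m862 to m865 and higher in that of mouse m866 at the deposited scaling. For the fast sarcomere list the medians were -0.92, -1.4, -2.04, -1.52 and 0.39 in mice m862 to m866, and -0.393, -0.816, -1.39, -0.92 and 0.109 with libraries set to a common total. In 5 mice 0 of 13 genes passed the call, against 10 called lower without mouse m866. *Myh4*, the IIB myosin of the fastest fibers, was at 32710, 21860, 12540, 21170 and 58350 in the HRS legs and 67000, 70650, 58800, 61490 and 38950 in the PBS legs (log2 difference -1.18, SE 1.57, adjusted p = 0.548). Every PBS leg of mice m862 to m865 was above the HRS leg, and the reverse held in mouse m866. The SE is moderated by a trend over abundance, which bears on the calls of genes as abundant as these. In the slow sarcomere list 6 of 11 genes were called lower and 1, the calsequestrin gene *Casq2*, higher, against 0 or 1 in either direction with 1 of mice m862 to m865 left out. *Myh7*, slow myosin, was at 50.0, 269.7, 26.7, 107 and 765 in the HRS legs and 284, 1098, 2322, 1254 and 484 in the PBS legs (log2 difference -2.76, SE 0.89, adjusted p = 0.0438). *Myl2*, the slow and cardiac regulatory light chain, had a log2 difference of -2.9. The slow list had its lowest median, -4.03, in mouse m864, and that of mouse m862, -0.317, was 0.2 at a common total. The skeletal muscle identity genes, used as a check of tissue content, had medians of -0.9, -1.42, -2.11, -1.27 and 0.5 over the mice.

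Mitochondrial genes were also lower in mice m862 to m865, while the sign in mouse m866 depended on scaling. The 13 mitochondrially encoded respiratory chain genes had medians of -1.38, -1.61, -2.44, -1.34 and 0.31 and the 20 nuclear ones -0.99, -1.12, -1.62, -1.3 and 0.26 in mice m862 to m866. With libraries set to a common total the medians of mouse m866 were 0.0333 and -0.0171 for these lists and 0.0219 for the TCA cycle and fatty acid oxidation genes, and those of mice m862 to m865 were smaller in size but still below 0. They were -0.852, -1.03, -1.78 and -0.739 for the mitochondrially encoded genes and -0.469, -0.533, -0.964 and -0.702 for the nuclear ones. In 5 mice 4 of 13 and 6 of 20 were called lower, and without mouse m866 13 of 13 and 18 of 20 were. None of the 33 was called with 1 of mice m862 to m865 left out. *mt-Nd4*, a subunit of complex I, was at 4851, 3924, 2285, 5043 and 13880 in the HRS legs and 14600, 12460, 13920, 13290 and 11190 in the PBS legs (log2 difference -1.39, SE 0.71, adjusted p = 0.14), not called. *mt-Nd4l* was at 257, 215, 138, 339.5 and 897 in the HRS legs and from 752 to 941 in the PBS legs (log2 difference -1.51, SE 0.41, adjusted p = 0.0298). It overlaps *mt-Nd4*, so reads may be shared. Both genes had a similar pattern over the mice, and their SEs are moderated by abundance. *Cox6a2*, the muscle form of a cytochrome oxidase subunit, was at 216, 156, 88, 167 and 446 in the HRS legs and 616, 476, 530.0, 633 and 395 in the PBS legs (log2 difference -1.49, SE 0.37, adjusted p = 0.025). Each of these was below the PBS legs in mice m862 to m865 and above its own PBS leg in mouse m866. Of 20 genes of the TCA cycle and fatty acid oxidation 8 were called lower, 19 without mouse m866, with *Acadm* (-1.28) among the 8, and none was called with 1 of the other mice left out.

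Of 22 genes of glycolysis and glycogen 5 were called each way, and the 5 higher are a share near the 16.5% of all tested genes. Lower were *Slc2a4*, the insulin-regulated glucose transporter GLUT4, *Pfkm* (-1.48), *Ldhb* (-1.45), *Gys1* and *Hk2*, and higher were *Hk1*, *Hk3*, *Pfkp*, *Pgam1* and *Eno1*. With 1 of mice m862 to m865 left out 2 or 3 of the higher and 0 or 1 of the lower genes were called. Without mouse m866 5 of the 22 were called higher and 13 lower. *Slc2a4* was at 167, 121, 66.4, 138 and 488 in the HRS legs and 648, 500.1, 522, 601 and 459.8 in the PBS legs (log2 difference -1.8, SE 0.41, adjusted p = 0.0194). *Hk3*, the hexokinase of myeloid cells, was at 40.7, 44.8, 139.6, 36.2 and 21.3 in the HRS legs and 1.41, 1.57, 3.05, 1.77 and 2.77 in the PBS legs (log2 difference 4.19, SE 0.34, adjusted p = 0.000886). *Slc2a4* was low in 4 HRS legs and not in mouse m866, whereas *Hk3* was higher in all 5. The calls of *Slc2a4*, *Myh7*, *Cox6a2* and *mt-Nd4l* were each lost without any 1 of mice m862 to m865 and kept without mouse m866. The skeletal muscle identity genes were lower beside these lists in the same 4 mice (0 of 10 called, 6 without mouse m866), and their part in the metabolic results was not tested.

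Adipocyte genes were lower in the HRS leg of every mouse, with 10 of 14 called lower, 7 to 10 with 1 mouse left out, and medians of -1.13, -0.86, -2.48, -2.33 and -2.86 in mice m862 to m866. *Scd1*, which desaturates fatty acids, was at 117, 125, 37, 55.9 and 294 in the HRS legs and 504, 372, 229, 379.7 and 2970.0 in the PBS legs (log2 difference -2.48, SE 0.26, adjusted p = 0.00169). *Lep*, the hormone leptin, was at 4.07, 2.6, 0.304, 1.44 and 13.3 in the HRS legs and 23.8, 6.03, 4.94, 12.5 and 124 in the PBS legs (log2 difference -2.43, SE 0.3, adjusted p = 0.00285). *Adipoq*, adiponectin, was at 22.3, 22.8, 3.82, 8.81 and 36.7 in the HRS legs and 51.2, 37.6, 21.6, 47.1 and 344 in the PBS legs (log2 difference -1.96). The PBS leg of mouse m866 was far above the other PBS legs for all 3, and the legs overlapped across animals although each HRS leg was below the PBS leg of its own mouse. Without mouse m866 the log2 difference of *Scd1* was -2.26. *Ces1d*, a lipid esterase, was at 12, 17.1, 2.66, 14.5 and 99 in the HRS legs and 119.7, 108, 90.9, 83.7 and 331 in the PBS legs (log2 difference -2.99, SE 0.41, adjusted p = 0.0042). *Oxtr*, the oxytocin receptor, was at 1.5, 1.57, 0.572, 0.659 and 3.55 in the HRS legs and 13.4, 6.44, 4.71, 6.94 and 36.6 in the PBS legs (log2 difference -2.54, SE 0.23, adjusted p = 0.00107). *Cyp2e1* (-2.52), *Dgat2* (-2.26), *Amy1* (-2.11), *Pck1* (-2.3), *Nnat* (-2.77), *Ppp1r1a* (-2.66) and *Timp4* (-2.38) also fell in all 5 mice. Of these, *Ppp1r1a* and *Timp4* lost their calls without mouse m862, m863 or m865, and *Pck1* without mouse m864 or m865. In the PBS leg of mouse m866 *Ppp1r1a* (78.7) and *Timp4* (40.3) lay within the other PBS legs, unlike *Scd1*, *Lep* and *Adipoq*. Both were named as large falls and not as adipocyte genes.

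The injected antigen's own mouse gene, *Hars*, was at 36.7, 34, 35.2, 32.7 and 33.5 in the HRS legs and 36.3, 35.7, 29.2, 32.8 and 32.6 in the PBS legs (log2 difference 0.05, SE 0.1, adjusted p = 0.703), so the 2 legs overlapped and it was not called. The protein was injected, so its transcript is no check of the labels. None of the 19 tested aminoacyl-tRNA synthetase genes was called in either direction, against 22.2% of all genes. Their median log2 difference was -0.33 overall and 0.27 in mouse m866, and it was 0.0903 overall with libraries set to a common total. Cytosolic ribosomal protein genes had 1 of 18 called, *Rpl3*, which was higher but not with any 1 of mice m862 to m865 left out. Of 14 endoplasmic reticulum stress genes 3 were called higher, a share near the 16.5% of all tested genes, and 1 lower. The higher calls numbered 1 to 3 and the lower 0 with 1 of mice m862 to m865 left out, and 5 and 1 without mouse m866.

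In mouse m866 some genes reached the range of the other 4 mice and most did not. Of the 3477 genes called higher in the other 4, 250 (7.19%) were at or above the lowest of them in mouse m866, 32 were above the highest, and 1198 were not higher in its HRS leg at all. Among the genes in range were 18 of 21 interferon gamma genes (8 above the highest of the other mice), 13 of 20 type I interferon genes, 7 of 10 B and plasma cell genes and 6 of 14 chemokines. With libraries set to a common total these counts were smaller, with 87 of the 3477 genes (2.5%) in range, 10 of 21 interferon gamma genes, 4 of 20 type I interferon genes, 5 of 10 B and plasma cell genes and 3 of 14 chemokines. At the deposited scaling fewer were in range for T cells (3 of 17), NK and cytotoxic cells (2 of 12), monocytes and macrophages (1 of 17), MHC class II (1 of 10) and MHC class I (1 of 14). None was in range for neutrophils (of 11), complement and acute phase (of 12), cell cycle (of 16), regeneration (of 11) or matrix (of 19), where 16 of 19 were not higher. Of the 1750 genes called lower in the other 4, 123 (7.03%) were in range and 1336 were not lower, or 297 (17.0%) and 814 at a common total. Those in range took in 9 of 10 adipocyte genes and 4 of 5 resident macrophage genes, but 0 of 13 mitochondrially encoded, 0 of 18 nuclear respiratory chain, 0 of 19 TCA cycle and fatty acid oxidation, and 0 of 10 fast sarcomere genes. The list members were chosen with the pattern of this mouse known, so these counts are descriptions. For the falling genes the unusual PBS leg of mouse m866, with its high adipocyte and low muscle identity genes, enters the same differences, and its part in them was not tested.

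**Figure D5:**
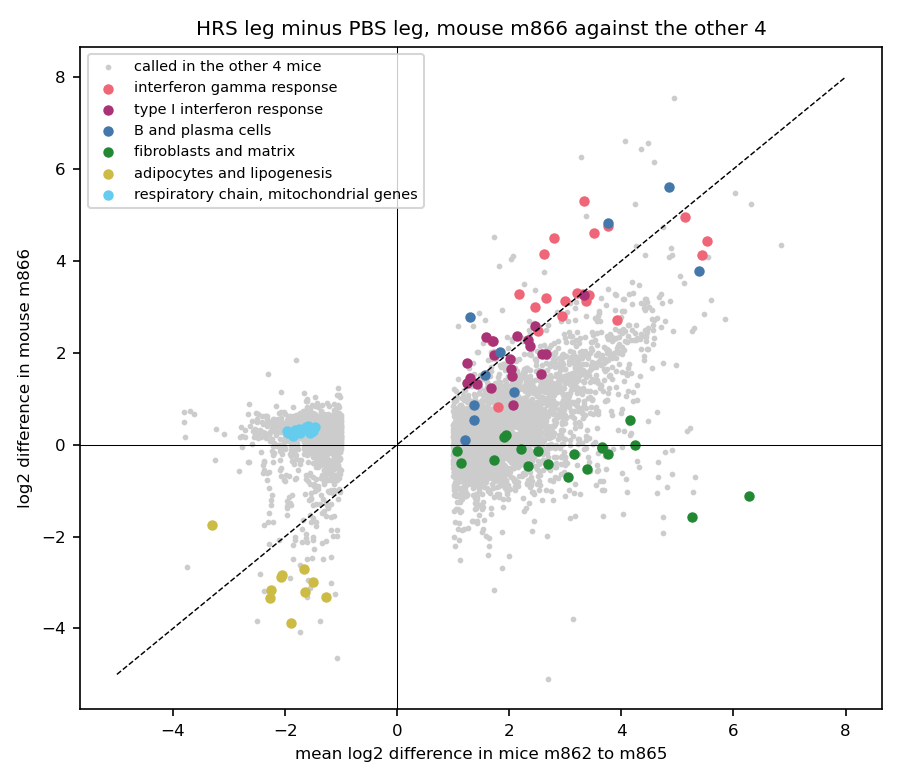
Log2 difference, HRS leg minus PBS leg, in mouse m866 (y axis) against the mean of mice m862 to m865 (x axis) for genes called in those 4 mice (grey), with 6 lists in color and equality as a dashed line. Interferon genes scatter about the dashed line and B and plasma cell genes lie on both sides of it, whereas mitochondrially encoded genes lie just above 0 in mouse m866, matrix genes lie between -1.57 and 0.54 there, and adipocyte genes mostly below the line. Values are at the deposited scaling, and at a common total 10 of 21 interferon gamma and 4 of 20 type I genes reached the range of the other mice.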

How the data were processed

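Poly(A)-selected, strand-specific RNA libraries of hamstring muscle were made from 9 mice (16 libraries). The sources used here name 3 sequencing platforms without assigning libraries to them. The authors deposited 1 table of normalised read counts (unit: signal, gene read coverage scaled between libraries, not whole counts), whose library totals have a geometric mean of 1000000. The submitters' processing notes list STAR 2.7.8a, limma, mm39 and GRCm39 with no role or order, but the gene coordinates in the table matched GENCODE M21 on GRCm38: 25652 of 26382 genes were found by symbol and chromosome, 98.9% of them with the same start and end. How the mouse libraries were normalised is not given in the sources used here. Low values, up to 20 reads, were whole multiples of the value of 1 read (within 0.02 of that step) in only about 75% of cases, so no count model was run, and the floor of 3 reads covers counting error only. All sample columns were used (0 left out).

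The fit took the 16414 genes whose mean over the 16 libraries reached 0.5, and was made on log2(value + 0.5) with limma 3.58.1 (R 4.3.3), with mouse as a block and a mean-variance trend, and p-values were adjusted by Benjamini-Hochberg over all of them. The pseudocount shrinks the fold changes of genes with few reads. The trend draws each SE towards that of genes of similar abundance, so an SE is not the spread of the paired differences alone. A call needed an adjusted p under 0.05 and an absolute log2 difference over 1. The pairing comes from the mouse labels, the legs of 1 animal. Deviations from the group means of the same mouse correlated at 0.12, 0.16, 0.097, -0.026 and -0.37 in mice m862 to m866, against a mean of -0.0068 between different mice. On simulated data of 16414 genes, 81.5% of 200 genes given a log2 change of 1.5 were recovered, with 1 false call. The simulation gave both legs the spread of the PBS legs and every mouse the same change. The measured responses differed between mice, so these rates do not carry over to these data. Shares were tested by an exact sign-flip permutation over mice. Summaries used Python 3.11.15 and pandas 2.3.3. Promoters came from RefSeq on GRCm38.p6.

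Genes were named by a rule: *Hars*; *Ifng*, *Cd69*, *Cxcr6*, *Prdm1* and *Itgae*; the 10 largest rises and falls among called protein-coding genes that moved the same way in 5 mice; the 5 largest moderated statistics each way; the 5 largest and 5 smallest SDs among genes called the same way in 5 mice with a log2 difference beyond 2; and the 3 largest called members of each list, or the largest where none was called. Other list members named in the text were chosen after their values were seen. The members and lists were chosen with earlier results of these data known. Alternatives were other scalings, pseudocounts, filters and variance models, fits without the mouse block, and each mouse left out in turn. Some genes are not reported here.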

Additional observations from a re-analysis of the deposited data

Results flagged for a closer look

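The mean log2 level of each gene list, the mitochondrial share, the implied depth and the library total were examined in the 5 HRS legs and the 5 PBS legs for a leg far from the others of its group, relative to the spread. Of 84 groups of values 9 had such a leg, where chance flags about 1 in 20 groups and lists that share genes are not separate chances, and 3 of the 9 were the HRS leg of mouse m866. In that leg the fibroblast and matrix genes stood at 5.804 (other HRS legs 7.919 to 8.668), the aminoacyl-tRNA synthetases at 6.154 (5.609 to 5.763) and the cytosolic ribosomal proteins at 6.302 (6.542 to 6.635).

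The PBS leg of mouse m866 stood apart in 4 lists. The adipocyte and lipogenesis genes were at 8.796 (other PBS legs 5.356 to 6.292), the fast sarcomere genes at 12.66 (13.25 to 13.32), the skeletal muscle identity genes at 11.92 (12.57 to 12.63) and the endoplasmic reticulum stress genes at 5.266 (4.937 to 5.014). Both legs of this mouse therefore enter its leg-to-leg differences with unusual values.

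In the PBS leg of mouse m864 the skin genes were at 4.774 against 0.0452 to 1.26 in the other PBS legs. In the HRS leg of mouse m863 the resident and alternatively activated macrophage genes were at 3.678 against 3.097 to 3.152 in the other HRS legs.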

How the results depend on the processing

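The count of called genes, 3652, ranged from 1555 to 5227 with 1 mouse left out, the lowest without mouse m862 and the highest without mouse m866. Genes called higher ranged from 1421 to 3477 and genes called lower from 111 to 1750 over the same fits. Genes called lower were also the count most open to scaling, with 300 when all libraries were set to a common total and 1595 after quantile normalization. All calls numbered 4132 and 3626 under these 2 scalings. Median-of-ratios scaling gave 2465 higher and 1209 lower.

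Without the mouse block 3745 genes were called in the 10 libraries and 3810 with the other groups in the fit, and 3667 with the block's correlation estimated, so the pairing moved the count by under 1.5 times. The other filters, pseudocounts and variance models gave 2553 to 4109 calls. Genes with 1 direction in all 5 mice numbered 5796, and 4670 to 7315 under the alternatives.

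Of 163 named genes, 102 had the same call and direction in every alternative, 132 in every alternative that kept 5 mice, and none changed direction. Of 39 list medians 25 were the same throughout. The median of the resident and alternatively activated macrophages, 0.02, changed sign to -0.0611 (median of ratios), -0.00228 (the smaller pseudocount) and -0.278 (quantile normalization), and ranged from -0.074 (without mouse m862) to 0.16 with 1 mouse left out. At a common total the medians of mast cells (-0.175 to 0.194), aminoacyl-tRNA synthetases (-0.326 to 0.0903) and peripheral nerve (-0.352 to 0.0523) also changed sign. The causes were not tested.

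With 5 pairs, of which 1 differed in many lists, the fold changes of matrix, regeneration, muscle and mitochondrial genes describe 4 mice more than 5. Side of the body and treatment cannot be told apart within the 10 libraries compared, nor can library platform be checked. In the left and right legs of the PBS-only mice the summed interferon gamma genes were at 196.7 to 667.5. In the HRS legs they were at 1353 to 6347. The part of side was not tested. Whether library totals reflect RNA content is unknown, which limits small shifts of whole lists.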

Other observations

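Some genes were listed at 0 in all 5 PBS legs and at the value of 1 read or more (less a tolerance of 0.02 reads) in all 5 HRS legs. Of 713 genes at 0 in every PBS leg this held for 113, and 30 of them were at least 10-fold higher in the pooled HRS legs than a floor of 3 reads over the PBS group. A further 11 genes were above 0 in every HRS leg but under 1 read in at least 1 of them. No gene was at 0 in all HRS legs and above 0 in all PBS legs. In each mouse the implied depth was higher in the HRS leg, so a value of 0 is more easily met in the PBS legs. The variable segment *Ighv1-80* was at 0.0882, 1.03, 7.09, 1.07 and 0.717 in the HRS legs of mice m862 to m866, at least 117-fold higher, or at least 40.2-fold without mouse m864. *Tigit*, an inhibitory receptor of T and NK cells, was at least 68.4-fold higher (33.8-fold without mouse m864). The light chain segment *Igkv12-41* was at least 64.5-fold higher, but 15.4-fold without mouse m863. The NK receptor genes *Klra3* (at least 54.9-fold) and *Klra6* (at least 22.2-fold), *Izumo1r*, a folate receptor family member of regulatory T cells (at least 30.5-fold), and the inhibitory receptor *Pvrig* (at least 11.7-fold, or 7.64-fold without mouse m864) had the same pattern. The T cell receptor segment *Trbv13-2* was at least 17.2-fold higher (7.2-fold without mouse m864). These genes were selected for being 0 in one group, so the folds describe them and carry no test.

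Among markers of other tissues, peripheral nerve (8 tested) and skin (6 tested) had no gene called, and blood had 1 of 7, the platelet chemokine *Pf4*, which was not called with any 1 of mice m862 to m865 left out. Most of the blood list went the other way. The globin genes *Hba-a1*, *Hba-a2*, *Hbb-bs* and *Hbb-bt* and *Alas2*, the first enzyme of heme synthesis in red cells, were lower in all 5 mice, with log2 differences of -0.65 to -0.74 and adjusted p of 0.0123 to 0.0253 by limma, short of the fold threshold. With libraries set to a common total their log2 differences were -0.23 to -0.38, and none of the 5 passed (adjusted p 0.122 to 0.286). The nerve genes differed between mice, with 8 of 8 higher in mouse m862 (median 0.803) and 0 of 8 in mouse m866 (median -1.13), whose PBS leg had the highest summed level of the 10 libraries. Of 278 long intergenic noncoding RNAs 33 (11.9%) were called higher and 32 (11.5%) lower, against 16.5% and 5.75% of all tested genes. The higher calls numbered 15 to 22 with 1 of mice m862 to m865 left out, 39 without mouse m866 and 46 with libraries set to a common total. The lower calls numbered 2 to 4 with 1 of mice m862 to m865 left out, 59 without mouse m866 and 13 with libraries set to a common total.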
